A study of Mus musculus with 9 samples.

Results

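The genes described here are 36 genes that cells use to enter, carry out and leave mitosis, followed in mouse pancreatic ductal adenocarcinoma (PDAC) cells recovered from lungs. They were taken by symbol from the deposited table, and all 36 were found among its 24012 genes. For the comparison of early with late mitosis they were split by known role into 24 genes of entry, chromosome structure, kinetochore and spindle, and 12 genes of the chromosomal passenger complex, mitotic exit and cytokinesis. The study sequenced 9 libraries, 3 in each of 3 groups, and its design text sets mCherryHigh and DTC cells against mCherryLow cells. The mCherryLow and mCherryHigh libraries were sorted at 6 weeks on GFP and on the signal of a Gstt1-mCherry reporter. The DTC libraries were sorted on GFP alone at 5 days. All groups share 1 genotype, SIRT6F/F/p48-Cre/p53F/+KrasL/+, in which the p48-Cre driver acts in the pancreas, and all cells had been injected into mice through the tail vein. Neither the age of the mice nor the source of each library (a mouse, a pool or a clone of cells) is on the labels, so p-values measure only the spread between these libraries, which may be technical.

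Mitosis begins when the kinase Cdk1, bound to cyclins A and B, is switched on by the phosphatase Cdc25c and helped by the kinases Plk1 and Aurka. Kinetochores then tie chromosomes to spindle microtubules while the checkpoint kinases Bub1 and Ttk hold the cell back, until Cdc20 and Ube2c turn on the anaphase-promoting complex, cyclins are destroyed, and the central spindle and contractile ring divide the cell. Most of these genes are transcribed late in the cell cycle under the DREAM and MuvB-FOXM1 complexes, so their RNA in a tumour is widely read as a sign of cycling cells.

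Library totals, recovered from the deposited CPM (reads per gene scaled to the library total), ran from 2051266 to 11861241 reads in mCherryLow, 643748 to 9800173 in mCherryHigh and 923988 to 2052623 in DTC, so 1 read was worth from 0.0843 CPM (mCherryLow 6) to 1.55 CPM (mCherryHigh 1). Gstt1 itself followed the sort, with 11.9 to 29.4 CPM in mCherryLow, 48.4 to 60.6 CPM in mCherryHigh and 6.09 to 11.2 CPM in DTC. DTC 3 stood apart. Its ductal tumour markers (10 keratin and epithelial genes) summed to 463 CPM against 5376 and 6091 CPM in DTC 1 and 2, and its macrophage list (18 genes) to 9829 CPM against 4996 and 4130 CPM. Most of the ductal gap was in Krt8, Krt18 and Krt19. Krt7 and Muc1 were instead highest in DTC 3, at 23.8 and 18.4 CPM against 10.7 to 17.5 CPM and 6.82 to 15.2 CPM, and Epcam lay between DTC 1 and 2. mCherryLow 1 and mCherryHigh 1 stood apart from the other sorted libraries in macrophage sums, at 4608 and 2964 CPM against 528 to 899 CPM. Most of these sums came from Tyrobp and Ear2, which were at 0 reads in mCherryLow 5 and 6 and mCherryHigh 5 and 6. Tyrobp and Ear2 lay at 1873 and 1786 CPM in mCherryLow 1 and at 1156 and 1274 CPM in mCherryHigh 1. A list of 6 leukocyte genes was lowest in mCherryHigh 1, at 183 CPM against 266 to 572 CPM in the other sorted libraries. Codes in the labels place the DTC libraries in 1 series, mCherryLow 1 and mCherryHigh 1 in another, mCherryLow 5 and 6 and mCherryHigh 5 in the next, and mCherryHigh 6 alone. What the codes stand for is not stated. Since all DTC libraries share a series, a time and a gate, these cannot be told apart from the state of the cells.

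All 3 marker genes of cycling cells had reads in every library, though Ccnb2 in mCherryHigh 1 rested on 1 read and Plk1 in DTC 3 on 3 reads. Mki67, the Ki-67 protein that coats mitotic chromosomes and serves as the standard proliferation marker, lay between 71.4 and 155 CPM in all 9. Ccnb2, a B-type cyclin, reached 32.5 CPM or more in the mCherryLow and DTC libraries and 1.55 to 24.4 CPM in mCherryHigh. Plk1, a kinase of mitotic entry, lay at 36.3 to 83.4 CPM in the sorted libraries and 3.25 to 46.8 CPM in DTC. In bulk libraries such as these, fewer cells with a transcript and less of it per cell cannot be told apart.

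Within each group the mitotic genes tended to be high or low in the same library. In mCherryLow, replicate 5 had the highest value for 26 of the 36 genes, against 30.7% of 20213 genes in the table. Within mCherryHigh, replicate 1 was highest for 23 of them (48.3% of all genes) and replicate 6 lowest for 25 (24.5%). Within DTC, replicate 2 was highest for 29 (30.5%) and replicate 3 lowest for 32 (32.7%). The mean of the 36 genes on the log2(CPM + 1) scale was 5.83, 6.35 and 5.55 in mCherryLow 1, 5 and 6, 6.01, 5.68 and 5.30 in mCherryHigh 1, 5 and 6, and 5.51, 6.19 and 4.61 in DTC 1, 2 and 3. The ranges of the 3 groups overlap, and DTC 3 is the lowest of the 9. The spread of the mitotic genes was ordinary in the sorted groups, with a median SD of 0.48 in mCherryLow and 0.57 in mCherryHigh against 0.49 and 0.53 for all genes in the same range of level. In DTC it was wider, at 0.82 against 0.57.

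**Figure D1:**
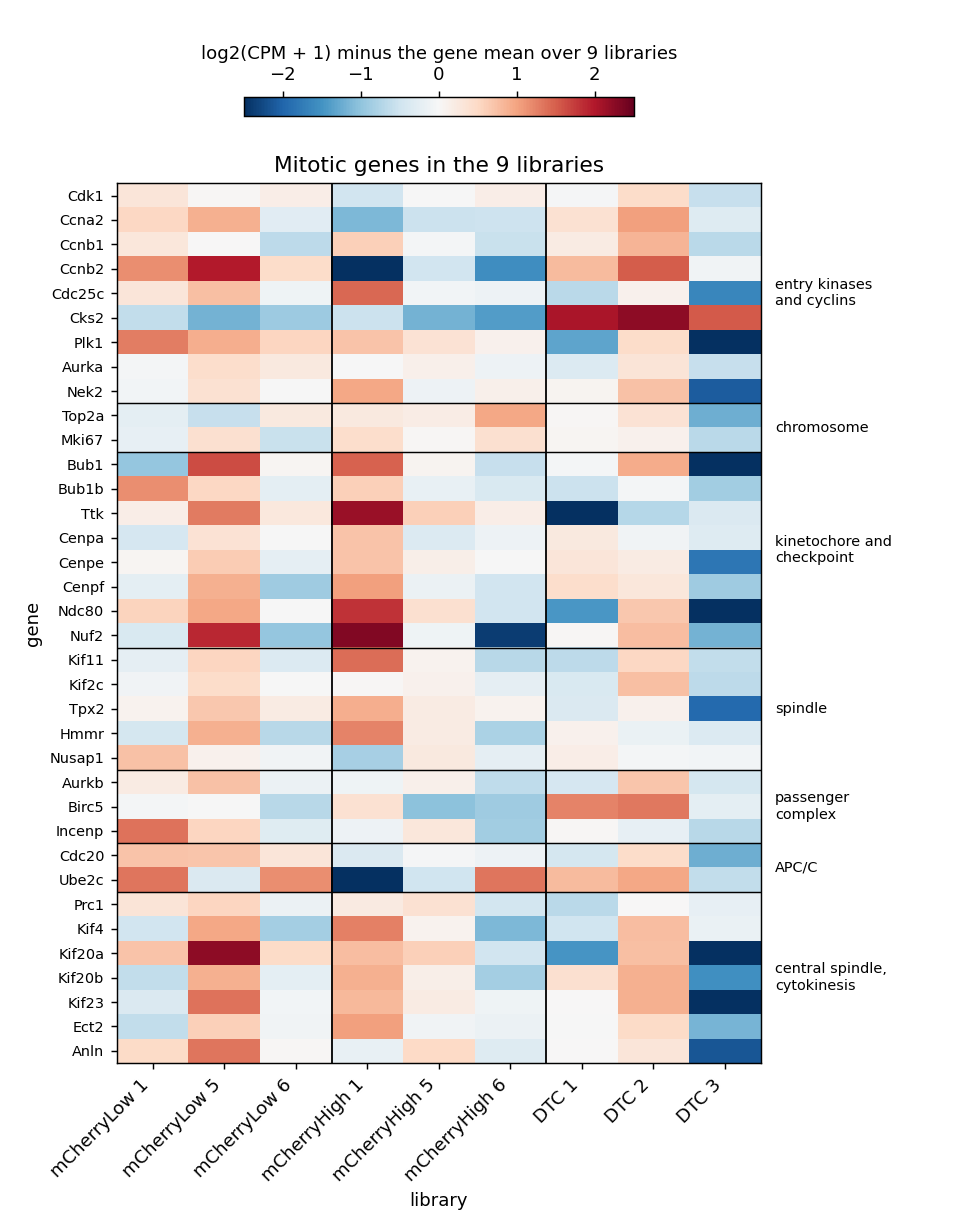
Level of each of the 36 mitotic genes in the 9 libraries, as log2(CPM + 1) minus the gene's mean over all libraries, in columns by library and rows ordered by role. Blue in the DTC 3 column marks the library that was lowest in its group for 32 genes, red in the mCherryLow 5 column the one that was highest for 26, and the Cks2 row is red in the DTC columns alone.

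The comparison of mCherryHigh with mCherryLow asks whether cells with a high Gstt1 reporter signal hold less mitotic RNA than those with a low one. Of the mitotic genes, 17 were higher and 19 lower in mCherryHigh, with a median difference of -0.07 on the log2(CPM + 1) scale, against 0.09 for all genes, and 27 were lower with TMM scaling and 34 without mCherryHigh 1. Of the 36, 3 cyclin and exit genes lay lower in every mCherryHigh library than in every mCherryLow library. These were Ccnb2, Ccna2 and Cdc20. Mki67 and Top2a, the marker of proliferation and the enzyme that untangles chromosomes, had higher means in mCherryHigh without passing the test.

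Ccnb2 (ENSMUSG00000032218) drives Cdk1 at mitotic entry. It lay at 78.5, 140 and 48.1 CPM in mCherryLow 1, 5 and 6 and at 1.55, 24.4 and 11 CPM in mCherryHigh 1, 5 and 6. The groups do not overlap, and the lowest value, in mCherryHigh 1, is 1 read (95% exact Poisson interval 0.0393 to 8.66 CPM, counting error only). The difference was -3.15 (SE 0.84, limma adjusted p = 0.444), and it was -2.23 without mCherryHigh 1. DESeq2 on the recovered reads alone called it, at an adjusted p of 0.0370, where the adjusted p over all alternatives ran from 0.0370 to 0.905. Ccna2 (ENSMUSG00000027715), the cyclin of S phase and early mitosis, lay at 74.6, 96.5 and 42.2 CPM in mCherryLow and 23.3, 35.6 and 35.7 CPM in mCherryHigh, a difference of -1.09 (SE 0.40, limma adjusted p = 0.488). Cdc20 (ENSMUSG00000006398), the activator of the anaphase-promoting complex, lay at 120, 118 and 90.04 CPM in mCherryLow and 55.9, 70.6 and 66.2 CPM in mCherryHigh. Its replicates were close within each group, and the difference was -0.75 (SE 0.26, limma adjusted p = 0.488). The other B-type cyclin, Ccnb1, showed no such gap, with 44.9, 36.9 and 22.8 CPM in mCherryLow and 55.9, 35.6 and 24.6 CPM in mCherryHigh.

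limma called 0 of the 36 genes in either direction (3 had an unadjusted p under 0.05), as it called 0% of the 15437 genes tested higher and 0% lower (1448 had an unadjusted p under 0.05). edgeR also called 0 of the 36 (3 with an unadjusted p under 0.05) and 0 of all genes (1221), while DESeq2 called 1 of the 36 and 132 of all genes. The groups did not overlap for 0 mitotic genes higher in mCherryHigh, where 10.2% of all genes lay so, and for 3 lower, where 5.78% did. A share of 3 in 36 is near that background.

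**Figure D2:**
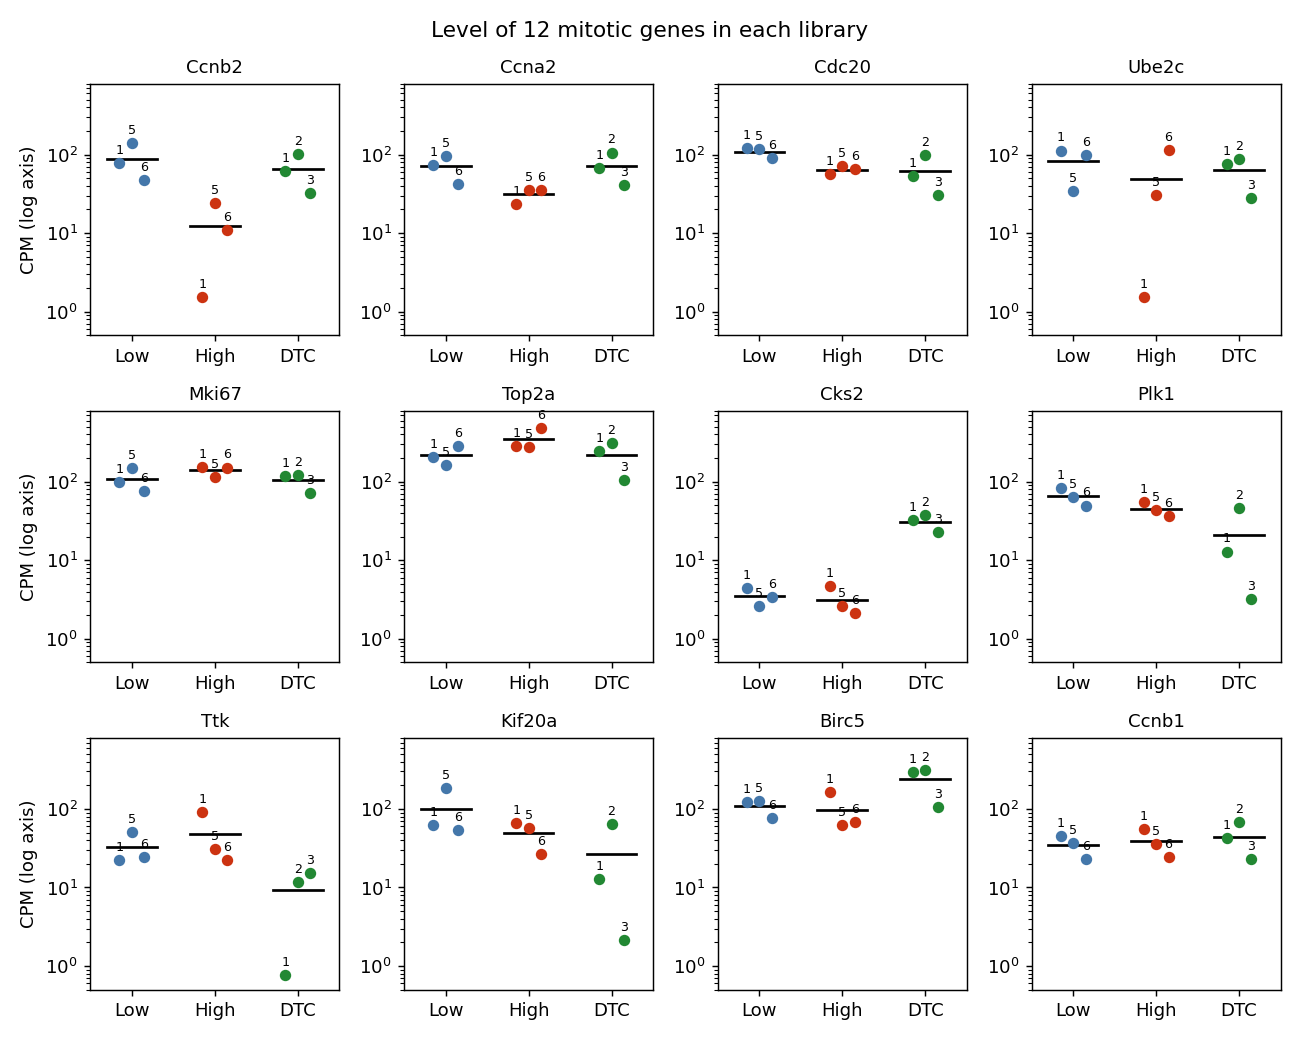
Level in CPM on a log axis of 12 mitotic genes in the mCherryLow (blue), mCherryHigh (red) and DTC (green) libraries, where each point is 1 library with its replicate number and each bar is the mean of 3. The mCherryHigh points of Ccnb2, Ccna2 and Cdc20 lie below all mCherryLow points, those of Mki67 and Top2a do not, and Cks2 lies at 22.7 to 38 CPM in DTC against 2.15 to 4.66 CPM elsewhere.

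Top2a (ENSMUSG00000020914), topoisomerase II alpha, lay at 206, 161 and 286 CPM in mCherryLow and at 287, 277 and 477 CPM in mCherryHigh. The groups overlap at their edge, with mCherryLow 6 above mCherryHigh 5, and the difference was 0.66 (SE 0.31, limma adjusted p = 0.557). Mki67 (ENSMUSG00000031004) lay at 99.0, 150 and 77.1 CPM in mCherryLow and at 155, 116 and 152 CPM in mCherryHigh, a difference of 0.42 (limma adjusted p = 0.710). Both differences stayed above 0 under every alternative run, between 0.41 and 0.88 for Top2a and between 0.20 and 0.67 for Mki67. The proliferation marker Mki67 and the cyclins Ccnb2 and Ccna2 thus had opposite signs in the same 6 libraries, none of them past the limma threshold.

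The promoter windows of the mitotic genes were read because these genes are known to share 2 elements, the cell-cycle genes homology region (CHR, searched as TTTGAA) bound by MuvB complexes and the CCAAT box bound by NF-Y. Windows of 300 bases, from 250 before to 50 after the annotated start, came from RefSeq (GRCm38.p6) and were found for 30 of the 36 genes. Those below belong to the genes with the smallest p in mCherryHigh against mCherryLow that had a window, and to Mki67 for contrast. They are written 5′ to 3′ along the gene, with each CHR and CCAAT match on either strand in capitals (TTCAAA and ATTGG are the same elements on the other strand). Ccnb2 is at chr9:70421505-70421804, Cdc20 at chr4:118437294-118437593, Top2a at chr11:99024140-99024439 and Mki67 at chr7:135716330-135716629, all on the minus strand.
Ccnb2: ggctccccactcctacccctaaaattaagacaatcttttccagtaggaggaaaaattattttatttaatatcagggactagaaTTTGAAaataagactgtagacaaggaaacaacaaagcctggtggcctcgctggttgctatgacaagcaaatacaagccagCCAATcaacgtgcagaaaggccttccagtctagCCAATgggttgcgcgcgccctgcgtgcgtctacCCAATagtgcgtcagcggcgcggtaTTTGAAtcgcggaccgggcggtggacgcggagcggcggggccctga
Cdc20: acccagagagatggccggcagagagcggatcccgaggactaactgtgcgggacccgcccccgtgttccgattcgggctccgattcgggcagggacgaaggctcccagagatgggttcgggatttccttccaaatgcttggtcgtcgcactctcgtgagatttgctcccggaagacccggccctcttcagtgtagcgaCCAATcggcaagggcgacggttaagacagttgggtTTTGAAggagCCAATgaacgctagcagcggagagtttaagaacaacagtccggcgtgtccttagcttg
Top2a: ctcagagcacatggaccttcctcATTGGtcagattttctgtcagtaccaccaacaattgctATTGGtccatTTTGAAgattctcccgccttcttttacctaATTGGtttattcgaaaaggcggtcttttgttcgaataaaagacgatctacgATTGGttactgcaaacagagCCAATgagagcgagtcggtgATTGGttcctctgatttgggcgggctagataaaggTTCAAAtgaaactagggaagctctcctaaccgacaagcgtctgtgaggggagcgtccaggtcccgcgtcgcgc
Mki67: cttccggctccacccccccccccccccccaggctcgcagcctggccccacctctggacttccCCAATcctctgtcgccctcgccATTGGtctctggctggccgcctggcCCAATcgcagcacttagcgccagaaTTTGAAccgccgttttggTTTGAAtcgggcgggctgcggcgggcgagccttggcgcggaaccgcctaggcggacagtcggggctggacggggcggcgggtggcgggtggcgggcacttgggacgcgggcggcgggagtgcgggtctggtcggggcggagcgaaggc

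Ccnb2 holds 2 CHR and 3 CCAAT matches, the latter at -87, -54 and -21 from the start and a CHR match at 5. Cdc20 holds 1 CHR match at -18 and CCAAT at -53 and -8. Top2a and Mki67, whose means were higher in mCherryHigh, hold the same elements as Ccnb2 and Cdc20, whose means were lower, none of them past the limma threshold, with 2 CHR and 6 CCAAT matches in Top2a and 2 and 3 in Mki67. Across the mitotic genes, 22 of 30 windows (73.3%) hold a CHR match and 23 (76.7%) a CCAAT match, against 18.1% and 37.9% of all 27025 promoter windows. Both elements stand in 18 windows (60.0%, against 7.12%), and 17 hold at least 2 CCAAT boxes (56.7%, against 12.2%). By phase, 14 of 21 early genes and 8 of 9 late genes hold a CHR match. No letters of either element are in the windows of Nuf2, Nusap1 and Birc5. A match is a description of letters and not a measured site.

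**Figure D3:**
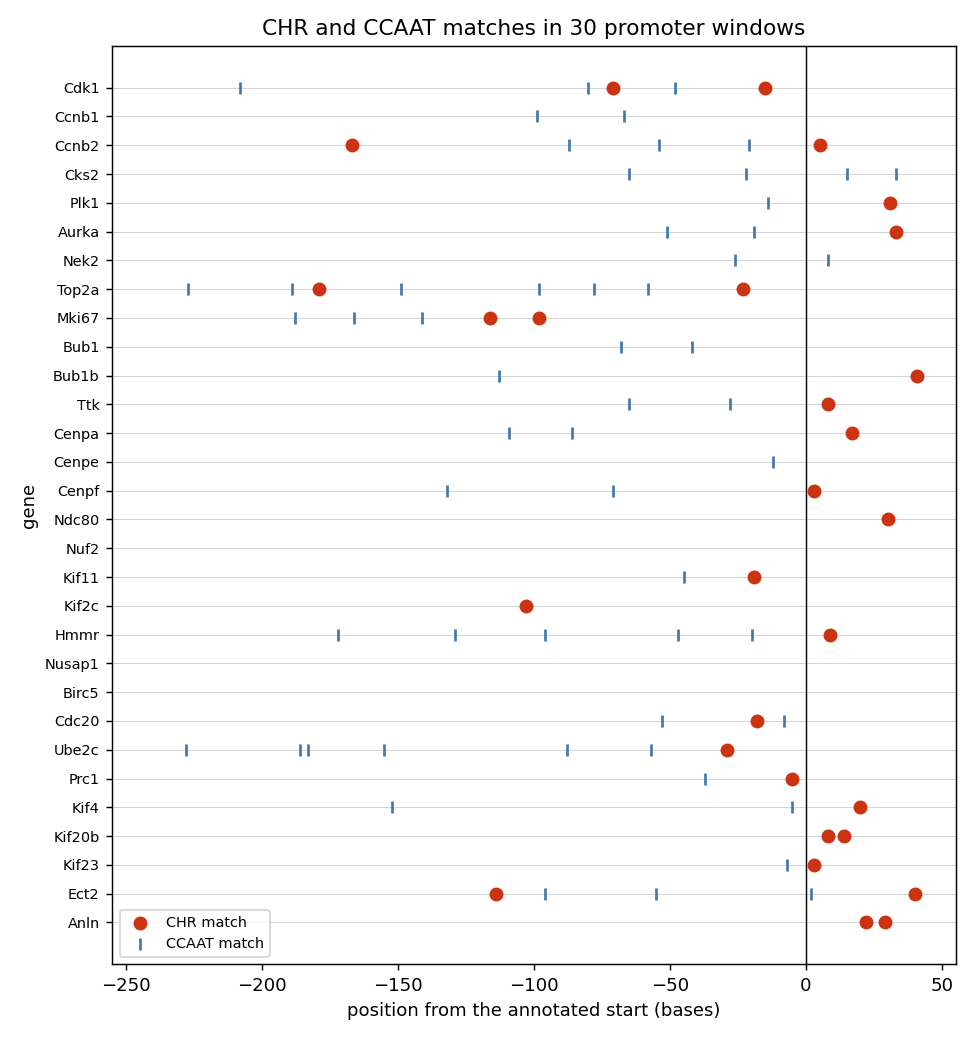
Positions of CHR (red circles) and CCAAT (blue ticks) matches on either strand, in bases from the annotated start (vertical line), in the 30 promoter windows with rows ordered by role. CCAAT ticks lie mostly before the start, and most rows hold both marks.

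Among the other entry genes, Cdk1, the mitotic kinase itself, lay at 102, 84.4 and 93.0 CPM in mCherryLow and 59.0, 82.3 and 92.7 CPM in mCherryHigh, so the ranges overlap. Plk1 lay at 83.4, 64.2 and 49.8 CPM in mCherryLow and 55.9, 43.7 and 36.3 CPM in mCherryHigh, and Aurka, the centrosome kinase, at 35.1, 49.1 and 42.9 CPM and 35.7, 39.4 and 33.1 CPM. Neither kinase separates the groups. Cdc25c, Nek2 (a centrosome kinase) and Cks2 (a small Cdk1 partner) also overlapped. Of the 9 entry genes, 3 were higher and 6 lower in mCherryHigh, with a median of -0.22 (-0.36 with TMM).

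The 8 kinetochore and checkpoint genes had 6 higher and 2 lower means with a median of 0.10, which became 2 higher and 6 lower with TMM (-0.05) and 8 lower without mCherryHigh 1 (-0.36). Nuf2, a subunit of the Ndc80 complex that grips microtubules, lay at 169 CPM in mCherryHigh 1 and at 30.8 and 5.62 CPM in mCherryHigh 5 and 6. Its own mCherryLow values ran from 16.6 to 126 CPM. Ndc80, Ttk and Bub1 showed the same order, with 82.3, 91.7 and 87.0 CPM in mCherryHigh 1 and 16 to 32.1 CPM in mCherryHigh 5 and 6. Bub1 in mCherryLow lay at 15.1, 96.9 and 31.7 CPM, a wider spread than that in mCherryHigh. The centromere proteins Cenpa, Cenpe and Cenpf and the checkpoint protein Bub1b varied less, by 3.49 times or less within either sorted group.

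The 5 spindle genes were split, with 3 higher and 2 lower in mCherryHigh and a median of 0.08 (2 higher and 3 lower, -0.07, with TMM). Kif11, the motor that pushes spindle poles apart, and Hmmr, a spindle assembly factor, lay at 120 and 233 CPM in mCherryHigh 1 and at 27.3 to 47.7 and 56.3 to 113 CPM in the other mCherryHigh libraries. Tpx2, which activates Aurka on the spindle, stayed between 100 and 179 CPM in all 6 sorted libraries, and Kif2c, a microtubule-depolymerising motor, between 22.0 and 36.2 CPM. Nusap1, a microtubule-bundling protein, was the only spindle gene with its lowest mCherryHigh value in replicate 1, at 29.5 CPM.

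All 3 genes of the passenger complex, which corrects faulty attachments and then moves to the midzone, had lower means in mCherryHigh. Aurkb, its kinase, lay at 56.6, 82.0 and 44.1 CPM in mCherryLow and 45, 53.8 and 31.0 CPM in mCherryHigh. Birc5 (survivin) lay at 123, 125 and 77.6 CPM and at 165, 61.8 and 68.0 CPM, and Incenp, the scaffold, ran from 66.9 to 214 CPM and from 45.2 to 102 CPM. In each case the groups overlap. Ube2c, the ubiquitin-conjugating enzyme of the anaphase-promoting complex, lay at 113, 34.1 and 99.3 CPM in mCherryLow and 1.55, 30.7 and 113 CPM in mCherryHigh. The mCherryHigh 1 value is 1 read, so its difference of -1.81 (SE 1.26, limma adjusted p = 0.692) became -0.29 without that library.

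Of the 7 cytokinesis genes, 3 were higher and 4 lower in mCherryHigh, with a median of -0.01 (-0.16 with TMM). Prc1, which bundles central spindle microtubules, lay at 154, 177 and 110 CPM in mCherryLow and 143, 160 and 88.5 CPM in mCherryHigh. Kif20a, the motor that brings passenger proteins to the midzone, lay at 62.9, 182 and 53.1 CPM and at 65.2, 57.6 and 26.8 CPM. Both overlap between the groups, and the gap in the Kif20a means comes from mCherryLow 5. Kif4, Kif20b, Kif23 (a centralspindlin motor), Ect2 (the exchange factor that sets the ring) and Anln (anillin, a ring scaffold) all had their highest mCherryLow value in replicate 5, and all but Anln their highest mCherryHigh value in replicate 1.

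The direction of the mitotic genes between the sorted groups rested on which libraries were compared. Without mCherryHigh 1, 34 of the 36 were lower in mCherryHigh, with a median of -0.30, where 41.9% of all genes were lower. Without mCherryLow 5, 16 were lower and the median was 0.22, and without mCherryHigh 6, 15 were lower and the median was 0.20. In none of these fits did limma call a mitotic gene. With TMM or median-of-ratios scaling, which moved the median of all genes from 0.09 to -0.04, 27 were lower with a median of -0.20. Within a code series the values split as well: mCherryHigh 1 was lower than mCherryLow 1 for 12 genes (median 0.45), mCherryHigh 5 was lower than mCherryLow 5 for 33 (median -0.64) and lower than mCherryLow 6 for 14 (median 0.12), where 44.1%, 45.7% and 46.0% of all genes were lower. Ccnb2, Ccna2 and Cdc20 were negative under every alternative run. They were named because their groups do not overlap, so leaving out a library or changing the pseudocount or filter could not change their sign. Marker lists of other cells also differed between the sorted libraries. The macrophage list summed to 4608, 528 and 635 CPM in mCherryLow 1, 5 and 6 and to 2964, 899 and 822 CPM in mCherryHigh, with 8 of its 11 tested genes higher in mCherryHigh. Most of the sums in mCherryLow 1 and mCherryHigh 1 came from Tyrobp and Ear2. The lung endothelial list (37.5 to 45.7 CPM against 51.1 to 63.7 CPM) and the fibroblast list (82.4 to 153.3 CPM against 153.8 to 194.7 CPM) did not overlap, and 10 of 10 ductal genes had higher means in mCherryHigh (median 0.54). limma called 0 genes of these lists (5 had an unadjusted p under 0.05), edgeR 0 and DESeq2 1. The part of these cells in the mitotic values was not tested.

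**Figure D4:**
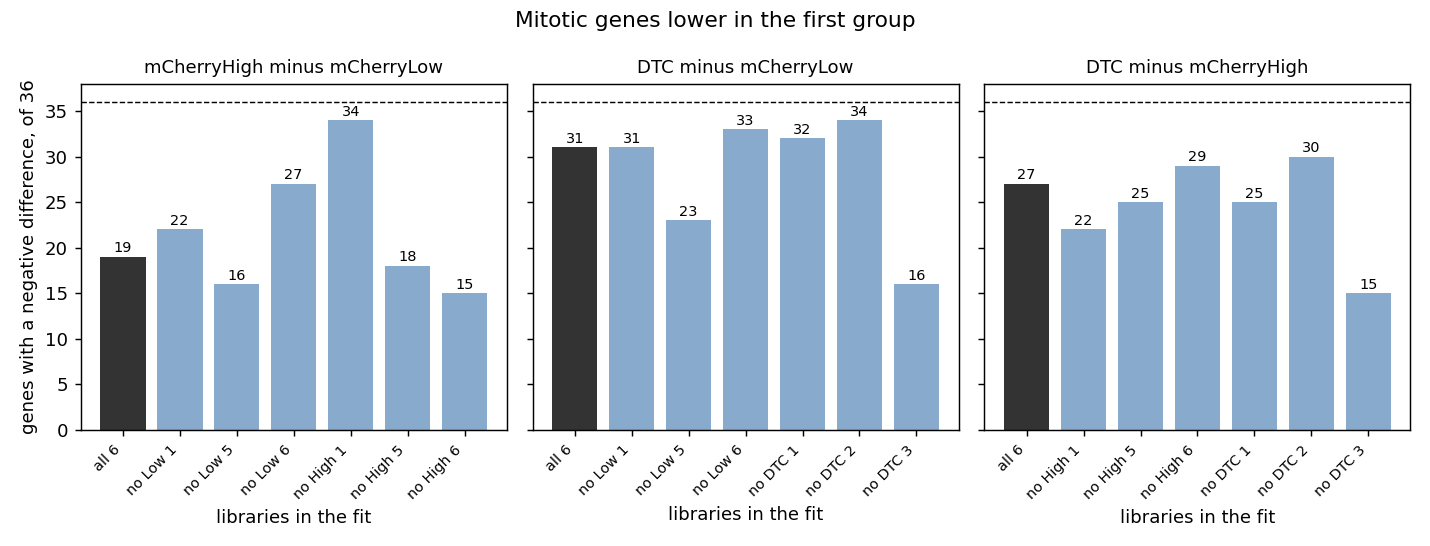
Number of the 36 mitotic genes (dashed line at 36) with a negative difference in each comparison, from all 6 libraries (black) and with each library left out in turn (blue). The count for mCherryHigh minus mCherryLow goes from 19 to 34 without mCherryHigh 1, and those for DTC fall from 31 to 16 and from 27 to 15 without DTC 3.

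The comparisons of DTC with each sorted group ask how mitotic RNA in cells at 5 days differs from that in metastases at 6 weeks. They share the 3 DTC libraries, so their values stand side by side and not as separate support. In DTC the small Cdk1 partner Cks2 rose against both groups, and Ccnb2 rose against mCherryHigh. The checkpoint kinase Ttk fell against both, and Plk1 and Kif20a fell against mCherryLow. The remaining genes were mostly lower in DTC without passing the test, and without DTC 3, 16 and 15 of the 36 were lower.

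Cks2 (ENSMUSG00000062248) lay at 32.7, 38 and 22.7 CPM in DTC, against 4.39, 2.63 and 3.37 CPM in mCherryLow and 4.66, 2.65 and 2.15 CPM in mCherryHigh. All 3 DTC libraries lay far above all sorted libraries, on 21 to 78 reads. The difference was 2.84 from mCherryLow (SE 0.53, limma adjusted p = 0.00174) and 2.97 from mCherryHigh (SE 0.59, limma adjusted p = 0.00522). It passed with each library left out and missed the threshold only with quantile normalization, at an adjusted p of 0.0577 and 0.0530, where the alternatives ran from 2.13e-05 to 0.0577 and from 2.31e-05 to 0.0530. Only 70.3% of 50-base windows of Cks2 transcripts are unique to it, with 3 genes sharing the rest. The glycolytic gene Gapdh, with 74.9% unique windows, also parted the groups, at 8.98 to 28 CPM in the sorted libraries and 284 to 520 CPM in DTC. How reads that map to several places were counted is not given in the sources used here, and its part in the Cks2 difference was not tested.

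Ttk (ENSMUSG00000038379), the Mps1 kinase that starts the spindle checkpoint, lay at 0.761, 11.7 and 15.2 CPM in DTC, on 1, 24 and 14 reads. It lay at 22.4, 50.5 and 24.1 CPM in mCherryLow and 91.7, 30.5 and 22.5 CPM in mCherryHigh, above every DTC value. The differences were -2.13 (SE 0.79, limma adjusted p = 0.0471) and -2.52 (SE 0.86, limma adjusted p = 0.0459). These calls lie at the threshold. Against mCherryLow the call held without DTC 3 (-2.72, adjusted p = 0.0336) and was lost when any other single library was left out, with an adjusted p of 0.169 and a difference of -1.12 without DTC 1, where the alternatives ran from 0.0151 to 0.169. Against mCherryHigh it held without mCherryHigh 6 alone (adjusted p = 0.0460), and the difference was -1.52 without DTC 1 (adjusted p from 0.0118 to 0.151 over the alternatives).

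Plk1 (ENSMUSG00000030867) lay at 12.9, 46.8 and 3.25 CPM in DTC on 17, 96 and 3 reads, and Kif20a (ENSMUSG00000003779) at 12.9, 64.3 and 2.16 CPM on 17, 132 and 2 reads. DTC 2 lay near the sorted libraries for both genes, and DTC 3 was the lowest. Against mCherryLow, Plk1 differed by -2.21 (SE 0.73, limma adjusted p = 0.0279) and Kif20a by -2.59 (SE 0.89, limma adjusted p = 0.0342). Without DTC 3 these were -1.34 (adjusted p = 0.0875) and -1.51 (adjusted p = 0.137), and over the alternatives the adjusted p ran from 0.00489 to 0.0875 and from 0.00617 to 0.137. The Plk1 call held without mCherryLow 6 and without DTC 2, and that of Kif20a without mCherryLow 1, mCherryLow 6 or DTC 2. Kif20a shares windows with Cdc23 on the other strand (74.8% of Kif20a windows are unique), and Plk1 exons overlap Gm44985 there (89.6% of Plk1 windows are unique). Whether counting used strand is not given in the sources used here. Against mCherryHigh, Plk1 differed by -1.69 (SE 0.75, limma adjusted p = 0.111), by -0.82 without DTC 3 (adjusted p = 0.339) and by -2.57 without DTC 2 (adjusted p = 0.0239, the only alternative that called it).

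Ccnb2 lay at 60.9, 101 and 32.5 CPM in DTC, overlapping mCherryLow and above all mCherryHigh libraries. It rose by 2.69 against mCherryHigh (SE 0.79, limma adjusted p = 0.0255), and by 1.77 without mCherryHigh 1 (adjusted p = 0.0379). The call was lost without DTC 1 (adjusted p = 0.0922), DTC 2 (0.106) or DTC 3 (0.0530), although the difference without DTC 3 was 3.11. The call was also lost with edgeR (1.81, adjusted p = 0.0873), quantile normalization (2.36, 0.0640) and TMM scaling (2.32, 0.0548). Over all alternatives the adjusted p ran from 0.0122 to 0.106. Ccna2 lay at 67.7, 106 and 41.1 CPM in DTC, also above all mCherryHigh libraries, and its difference of 1.08 (limma adjusted p = 0.0957) passed only without DTC 3 (1.43, adjusted p = 0.0488, against up to 0.282 under other alternatives). Birc5 lay at 299, 317 and 107 CPM in DTC, so DTC 1 and 2 lay above all sorted libraries and DTC 3 did not. Its difference was 1.02 from mCherryLow (limma adjusted p = 0.0848) and 1.28 from mCherryHigh (adjusted p = 0.0791), and without DTC 3 it was 1.53 (adjusted p = 0.00761) and 1.79 (adjusted p = 0.0354). Over the alternatives the adjusted p of Birc5 ran from 0.00761 to 0.376 and from 0.0240 to 0.250.

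Against mCherryLow, 5 mitotic genes were higher and 31 lower in DTC, with a median of -0.33 against 0.59 for all genes. limma called 1 higher and 3 lower, where it called 34.2% of 18701 genes higher and 8.87% lower. The groups did not overlap for 1 gene higher (39% of all genes) and 2 lower (14.2%). Against mCherryHigh, 9 were higher and 27 lower, with a median of -0.28 against 0.55, and limma called 2 higher (23% of 19700 genes) and 1 lower (7.19%). There the groups did not overlap for 3 genes higher (31.4%) and 1 lower (13.2%). Set against those shares, the counts of mitotic genes called higher lie below the background and those called lower near it. With TMM scaling the mitotic genes called lower against mCherryLow were 11 of 36, where 19% of all genes were, a share above that background. The median of all genes depends on scaling, at 0.16 and 0.24 with TMM and at -0.14 and -0.10 with quantile normalization. Of all calls against mCherryLow, 79.4% were higher, which was 60.1% with TMM, 65.2% with median-of-ratios and 52.7% with quantile normalization, and against mCherryHigh 76.2%, 61.2%, 67.8% and 51.3%. Under these scalings 28 to 34 mitotic genes were lower in DTC than in mCherryLow and 26 to 31 lower than in mCherryHigh.

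**Figure D5:**
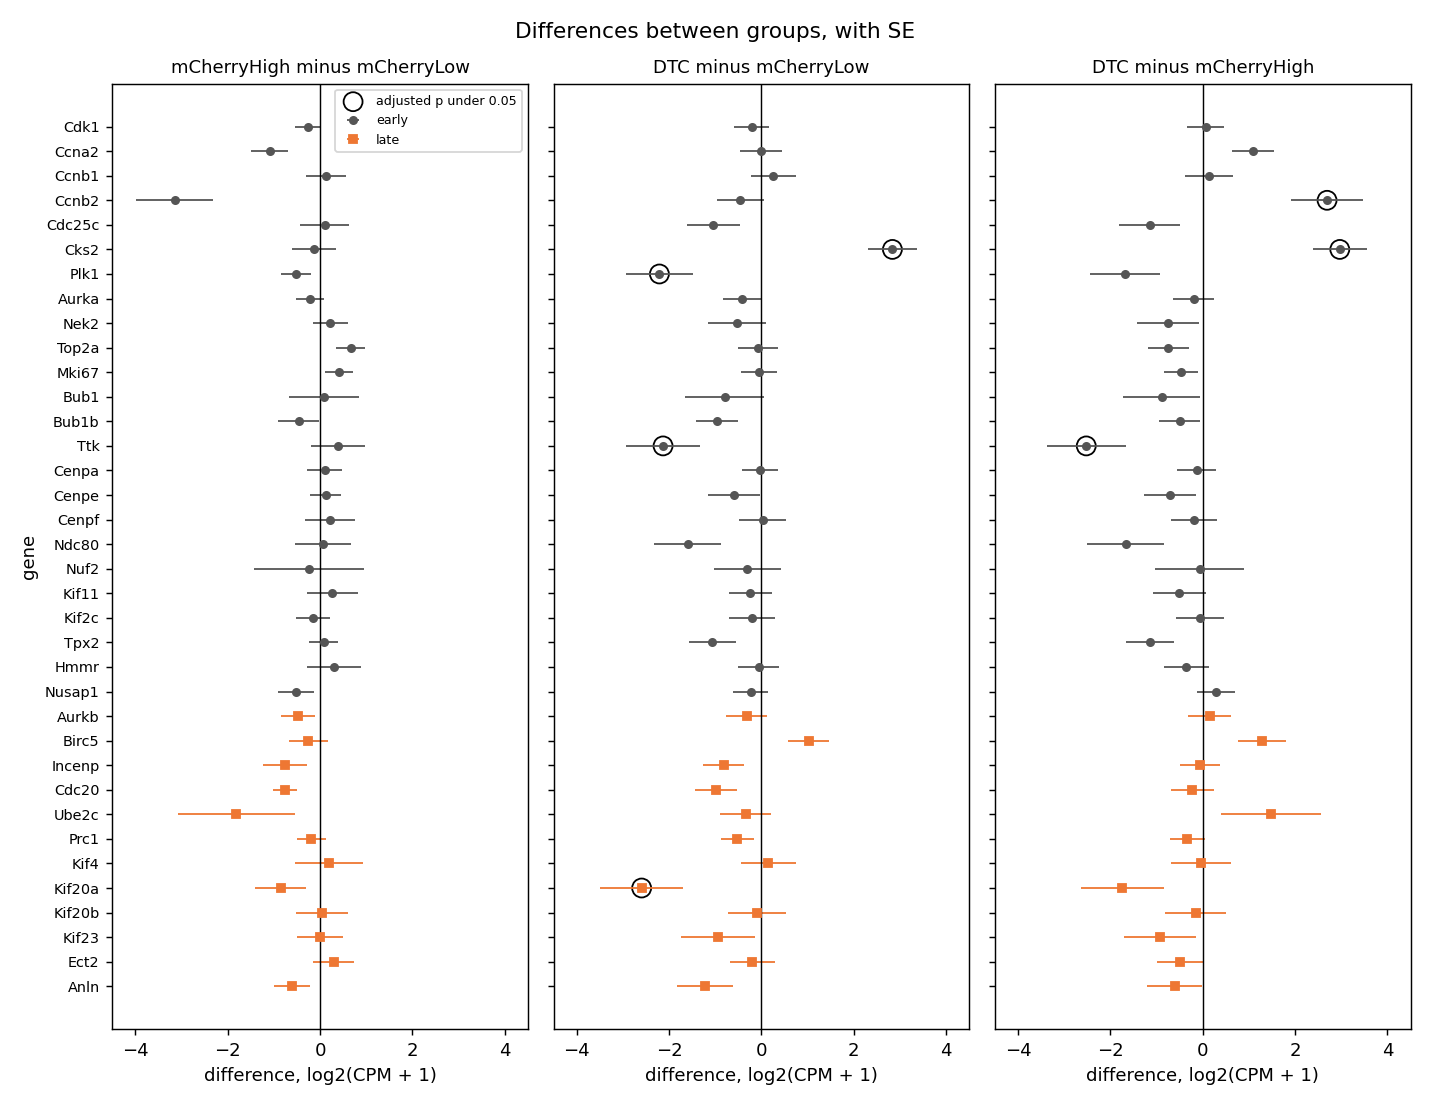
Difference of each mitotic gene on the log2(CPM + 1) scale in the 3 comparisons, with its standard error, for early (grey circles) and late genes (orange squares), where open rings mark limma adjusted p under 0.05. No gene is ringed for mCherryHigh minus mCherryLow, 4 are for DTC minus mCherryLow and 3 for DTC minus mCherryHigh.

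Without DTC 3, 16 of the 36 genes were lower than in mCherryLow (median 0.06, where the median of all genes was 0.60 and 35.5% were lower) and 15 lower than in mCherryHigh (median 0.10, where these were 0.53 and 35.2%). The medians of the mitotic genes thus moved above 0 and stayed below those of all genes. The genes called were then Cks2, Ttk and Birc5 against mCherryLow and Cks2, Ccna2 and Birc5 against mCherryHigh. Of all genes, 30.9% were then called higher and 7.02% lower against mCherryLow, and 14.8% and 5.1% against mCherryHigh. Without DTC 1, or without mCherryLow 5, Cks2 alone was called against mCherryLow, with 32 and 23 genes lower. In these fits 29.6% and 28.8% of all genes were called higher and 4.93% and 7.23% lower. Without DTC 2 the genes called lower than in mCherryLow were Plk1, Ndc80, Tpx2, Cdc20 and Kif20a, where 10.5% of all genes were called lower. DTC 3 held Krt8 at 76.8 CPM and Krt18 at 169 CPM, against 1429 and 1878 CPM and 3014 and 3046 CPM in DTC 1 and 2. All 3 DTC libraries were higher than every sorted library in the T and NK cell list (80.9 to 492 CPM against 8.98 to 20.7 CPM) and the lung endothelial list (299 to 640 CPM against 37.5 to 63.7 CPM). Of 18 macrophage genes, 17 were higher in DTC than in mCherryLow and 12 passed the test, where 34.2% of all genes did so. The part of these cells in the mitotic values was not tested.

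Several kinetochore genes were lowest in DTC 3. Bub1 lay at 29.7, 59.4 and 4.33 CPM and Ndc80 at 7.61, 37.0 and 3.25 CPM, the last values on 4 and 3 reads. Against mCherryLow the Ndc80 difference was -1.60 (limma adjusted p = 0.0959), -0.90 without DTC 3 (adjusted p = 0.318) and -2.48 without DTC 2 (adjusted p = 0.0110), and TMM and median-of-ratios scaling also called it. Cenpe and Nek2 dropped in DTC 3 in the same way, to 17.3 and 8.66 CPM from 73.1 CPM or more and 41.9 CPM or more in the others. Hmmr and Nusap1 did not, with 105, 86.7 and 76.8 CPM and 60.1, 51.2 and 50.9 CPM. Cdc20 lay at 53.3, 99.4 and 30.3 CPM, a difference of -0.98 from mCherryLow (limma adjusted p = 0.0963) that was -0.57 without DTC 3 (adjusted p = 0.260). It was called without DTC 2 and with TMM, median-of-ratios, edgeR and DESeq2, between -1.50 and -1.20 (adjusted p from 0.0176 to 0.0327). Ube2c lay at 76.1, 86.7 and 28.1 CPM and Aurkb at 36.5, 79.4 and 35.7 CPM, both within the range of the sorted libraries. Prc1 was the cytokinesis gene with the narrowest spread in DTC, at 76.1, 124 and 106 CPM, where Kif23 ran from 6.49 to 93.5 CPM and Anln from 21.6 to 122 CPM. Mki67 and Top2a lay at 118, 122 and 71.4 CPM and 247, 312 and 104 CPM, and Cdk1 and Aurka at 81.4, 114 and 55.2 CPM and 28.2, 45.8 and 23.8 CPM, with DTC 3 lowest for all 4. Ccnb1 followed them, at 42.6, 67.2 and 22.7 CPM.

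Early and late genes were compared by the medians of their differences, without a test. For mCherryHigh minus mCherryLow, the 24 early genes had a median of 0.08 (14 higher, 10 lower), which became -0.07 with TMM scaling, and the 12 late genes -0.37 (3 higher, 9 lower), so late genes lay lower by 0.45 on the log2 scale. That gap kept its sign with each library left out, between -0.66 and -0.24, and under the other alternatives, between -0.47 and -0.26. The late side of it rests on the passenger genes and on Cdc20 and Ube2c, since the median of the 7 cytokinesis genes was -0.01. For DTC minus mCherryLow the medians were -0.27 early and -0.43 late, and for DTC minus mCherryHigh -0.41 and -0.19, gaps of -0.16 and 0.23. With each library left out, the first ran from -0.21 to -0.030 and the second from -0.0042 to 0.35, and it was near 0 without mCherryHigh 6 or DTC 2. Without DTC 3 these medians were 0.06 and 0.01 against mCherryLow and 0.00 and 0.15 against mCherryHigh.

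Per library, the mean log2(CPM + 1) of late genes minus that of early genes was 0.56, 0.59 and 0.53 in mCherryLow 1, 5 and 6, and -0.05, 0.49 and 0.38 in mCherryHigh 1, 5 and 6. It was 0.51, 0.55 and 0.16 in DTC 1, 2 and 3. The value has meaning only between libraries, since CPM are not scaled by transcript length. All mCherryHigh values lie below all mCherryLow values, and mCherryHigh 1 is far below the rest. Without Ube2c, at 1 read there, mCherryHigh 1 stood at 0.37, with 0.58 and 0.27 in mCherryHigh 5 and 6 and 0.50, 0.74 and 0.46 in mCherryLow, so the groups then overlap. They also overlap with the passenger complex counted early, at 0.20, 0.51 and 0.44 in mCherryLow and -0.22, 0.37 and 0.35 in mCherryHigh.

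A further 95 genes of the mitotic machinery were taken from lists of regulators, kinetochore, spindle, cohesin and condensin, and exit and cytokinesis genes. Between the sorted groups 32 were higher and 63 lower in mCherryHigh, with a median of -0.23 (-0.01 without mCherryHigh 6 and -0.08 without mCherryLow 5). limma called 0 of them (8 had an unadjusted p under 0.05, against 1448 of all 15437 genes), edgeR 0 and DESeq2 2 (132 of all genes). The smallest p belonged to Cdca5 (sororin, which holds sister chromatids together), with means of 36.5 CPM in mCherryLow against 4.09 CPM in mCherryHigh, and to Pbk, a mitotic kinase, with 85.2 against 21.7 CPM. Bub3, the checkpoint partner of Bub1, had 204 against 110 CPM, and Ska1, which couples kinetochores to microtubules, 29.7 against 4.36 CPM. Lin54, the DNA-binding subunit of MuvB, went the other way, with 24.5 against 71.9 CPM. None of these 5 passed limma, at adjusted p from 0.444 to 0.523, and DESeq2 alone called Cdca5 and Pbk.

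Against mCherryLow, limma called 5 of the 95 higher and 7 lower in DTC (32 higher and 63 lower, median -0.46, or -0.05 without DTC 3). Of all genes, 34.2% were called higher and 8.87% lower. With TMM scaling 2 of the list were called higher and 29 lower (28.7% and 19% of all genes), and without DTC 3, 6 and 3 (30.9% and 7.02%). Cdc26, a small subunit of the anaphase-promoting complex, rose by 2.23 (SE 0.39, limma adjusted p = 0.00129) against mCherryLow and by 2.27 (SE 0.45, limma adjusted p = 0.00527) against mCherryHigh, and both calls held under every alternative run. Another core subunit of that complex, Anapc2, had a difference of -1.35 (limma adjusted p = 0.0139) and -1.51 (limma adjusted p = 0.0140), and its calls were lost without mCherryLow 1 or 6 and without mCherryHigh 5 or DTC 1. The kinesin Kif18a rose by 1.60 (limma adjusted p = 0.0105) against mCherryLow, a call that held with each library left out and was lost with TMM and edgeR. Pkmyt1, the kinase that restrains Cdk1, had a mean of 20.3 CPM in DTC against 51.1 CPM in mCherryLow (limma adjusted p = 0.0401), and its call held only without DTC 2 among the fits that left out a library.

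Against mCherryHigh 8 were called higher and 5 lower (42 higher and 53 lower, median -0.06, or 0.24 without DTC 3), where 23% and 7.19% of all genes were. With TMM scaling these became 4 and 14 (18.7% and 11.8% of all genes). Ccnf, the F-box cyclin, was at a mean of 11.8 CPM in DTC, 100.4 CPM in mCherryHigh and 41.6 CPM in mCherryLow, and its call against mCherryHigh (limma adjusted p = 0.00835) held under every alternative run. Pbk rose from 21.7 to 78.3 CPM (limma adjusted p = 0.0103), also under every alternative. Mastl, the Greatwall kinase that protects mitotic phosphorylation, rose from 4.83 to 42.0 CPM (limma adjusted p = 0.0148), a call lost without DTC 1 or DTC 3 and with edgeR and quantile normalization.

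S-phase genes, the step before the mitotic genes in the cycle, are given for scale. Of 35, 30 were lower in mCherryHigh than in mCherryLow, with a median of -0.52, beside -0.07 for the 36 mitotic genes, and the difference between the lists was not tested. Of all 15437 genes 43.6% were lower, with a median of 0.09. limma called 0 of the S-phase genes (11 had an unadjusted p under 0.05, against 1448 of all genes). edgeR called 0 and DESeq2 2 (132 of all genes), and the S-phase median was -0.20 without mCherryHigh 6. In DTC 14 were higher and 21 lower than in mCherryLow, with a median of -0.31, which turned to 0.33 without DTC 3. Rrm2, the ribonucleotide reductase subunit, was the only call, with means of 125 CPM in DTC and 370.2 CPM in mCherryLow (limma adjusted p = 0.0184), lost without mCherryLow 5, DTC 1 or DTC 3, whereas TMM scaling called 11 of the S-phase genes lower (19% of all genes). Against mCherryHigh 22 were higher, with a median of 0.44 (0.05 with TMM and 0.01 without DTC 2).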

How the data were processed

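RNA from 9 libraries (3 groups of 3) was extracted with RNAqueous-Micro, copied with a SMART-seq v4 kit and made into Nextera XT libraries, per the labels' protocols. The authors deposited a table of CPM per gene, and the submitters' processing notes name the build mm9. How reads were aligned and counted, by strand or at several places, is not given in the sources used here. All CPM values were whole multiples of 1 read within 0.01 read, so library totals and whole reads were recovered. A count of 0 allows 3 reads, or 0.253 to 4.66 CPM by library.

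Each comparison used the 6 libraries of its groups and the genes that reached 1 CPM in 3 or more of them. log2(CPM + 1) was fitted on group with limma 3.58.1 (R 4.3.3, trend on, two-sided tests), and p-values were Benjamini-Hochberg adjusted over all genes with a threshold of 0.05. All differences are on that scale, which understates changes of low genes. Standard errors are limma's moderated ones.

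The 36 genes, their roles, the pathway lists and the rule for named genes (all 36 by role, values per library for leaders and the smallest p, up to 3 genes per list and comparison) were chosen with earlier results of these data known. Of 98 pathway entries 95 were found. Alternatives were other pseudocounts (0.5 and 5) and filters, scalings and variance settings, 1 fit of all libraries, edgeR 4.0.16 and DESeq2 1.42.0 on recovered reads, thinning to 643748 reads, the label number as a block, the code series as a term and leaving out each library. Restriction to the 27 genes with at least 90% of 50-base transcript windows unique (GENCODE M21 transcripts, a later build than mm9) and the reading of DTC 3 as a doubted library were chosen after values were seen. The limma fit alone was run on counts simulated gene by gene with known changes. That simulation held no shift of whole libraries, and its outcome is not used here as support.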

Additional observations from a re-analysis of the deposited data

How the results depend on the processing

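For mCherryHigh minus mCherryLow, DESeq2 called 1 mitotic gene lower and 132 genes in all, where every other setting called 0. Deviations from group means of libraries with the same label number (1, 5 and 6) correlated at -0.20, -0.02 and 0.27 over all genes. Over the mitotic genes these values were -0.48, -0.11 and 0.63. Such deviations sum to 0 within a group of 3, so they cannot decide whether the numbers pair the libraries. The replicate block called 0 mitotic genes and 0 genes in all, with a median of -0.07. For DTC minus mCherryLow, the count of mitotic genes called lower, 3, became 9 with median-of-ratios (16.1% of all genes), 11 with TMM (19%), 8 with edgeR (16.6%) and 8 with DESeq2 (15.7%), 1 without a filter (6.2%), 1 without a trend (6.61%), 0 after thinning (6.65%) and 1 among genes with unique windows, where 0 were called higher. Quantile normalization called 4300 genes and made late minus early 0.046. For DTC minus mCherryHigh, 0 were called lower with a pseudocount of 0.5, without a filter, at 5 CPM, without a trend and after thinning (5.03% to 9.96% of all genes), and 2 with TMM (11.8%). There 1 was called higher with quantile normalization (8.2% of all genes), TMM (18.7%), edgeR (15.9%) and unique windows (23% in the main fit). Quantile normalization called 3150 genes, and late minus early was -0.14 with the passenger complex counted early. With each library left out in turn, mitotic genes called against mCherryLow ran from 1 to 2 higher and 0 to 5 lower. Of all genes, 27.7% to 33.6% were then called higher and 4.93% to 10.5% lower, and late minus early ran from -0.21 to -0.030. Against mCherryHigh the mitotic genes called ran from 1 to 3 higher and 0 to 3 lower. There 13.3% to 26.6% of all genes were called higher and 2.99% to 7.65% lower, with 3217 to 6751 genes called in all. Depth limits genes at 1 to 3 reads: Ccnb2 and Ube2c in mCherryHigh 1, Ttk in DTC 1, and Plk1, Ndc80 and Kif20a in DTC 3.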
